A study of Drosophila melanogaster with 4 samples.

Results

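The stretches of 3 chromosome arms in which elongating RNA polymerase II was not detected in Kc167 cells are described here. Kc167 is a female cell line from late embryos of Drosophila melanogaster, with the genotype se/e. Chromatin was precipitated with a rabbit polyclonal antibody (ab5095) to the polymerase whose C-terminal repeat is phosphorylated at serine 2 (Ser2P) and sequenced in 2 ChIP libraries, replicates 1 and 2. There were also 2 input libraries, which were not analysed here. Whether the replicates were grown as separate cultures is not stated, and their spread may be technical only.

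The authors deposited regions of significant Ser2P enrichment, called clusters here, for each replicate and for the series as a whole (the combined set). On the arms 2L, 3L and 3R replicate 1 had 2938 clusters, replicate 2 had 2918 and the combined set had 3097. The replicate clusters were merged wherever they overlapped or touched, which gave 2930 merged clusters with 2927 stretches between them. A stretch was kept when it measured 40 kb or more, and the 437 long stretches so selected by their length make up 14.9% of the 2927. The 2490 shorter stretches on the same arms serve for comparison. Because the cluster positions themselves chose the long stretches, their number, lengths and positions are descriptions with no test. The read depth behind the clusters is unknown. How much of each stretch could take up sequencing reads was not tested, so a stretch without clusters need not be free of polymerase.

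RNA polymerase II is phosphorylated at serine 2 as it leaves the promoter-proximal pause, by kinases that include P-TEFb. The mark builds up along the body of a transcribed gene and is a common sign of productive elongation. In cultured fly cells much of the genome lies in repressive chromatin that carries few marks of transcription and holds many genes used only in particular tissues. Genes cannot be named for the stretches below, because the gene table at hand describes another release of the genome than the files. Positions are on FlyBase release 5 and are counted from 1.

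Sequence without Ser2P clusters was concentrated in few, very long stretches. The 437 long stretches spanned 39.5 Mb, which is 52.4% of the 75.5 Mb of the 3 arms and 64.3% of their cluster-free sequence. The median long stretch measured 69443 bp, with a middle range from 52368 to 109496 bp, whereas the median shorter stretch measured 4652 bp. The longest 10% of all stretches held 53.0% of the cluster-free sequence. Called in each replicate on its own, long stretches totalled 444 in replicate 1, where they spanned 40.7 Mb, and 443 in replicate 2, where they spanned 40.4 Mb (40.6 ± 0.23 Mb, SD, n = 2).

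The lengths were set beside those that the same number of stretches would have on average if the same cluster-free sequence were divided at random points, from a closed formula and with no test. At 40 kb the numbers met, with 437 stretches observed and 436 by the formula. The observed lengths were more spread out on either side of that point. Stretches under 1 kb numbered 498, against 136 by the formula, and stretches of 10 kb or more numbered 1216, against 1818. Above 40 kb the order turned. There were 275 stretches of 60 kb or more, against 169, and 126 of 100 kb or more, against 25.3. Stretches of 200 kb or more numbered 26, where the formula gives 0.22. For this number of stretches, the long ones held 1.48 times the sequence that random division would put into stretches of 40 kb or more, 39.5 against 26.6 Mb. The formula counts every stretch, also the 498 under 1 kb, so its averages depend on how finely the clusters were split. It was not taken with close clusters joined. In the combined set 435 stretches of 40 kb or more stood against 402 by the formula, so the numbers did not meet in every set. At 100 kb the replicates gave 132 and 133 stretches (132.5 ± 0.71, SD, n = 2), a spread that does not measure how much random division itself would vary.

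**Figure D1:**
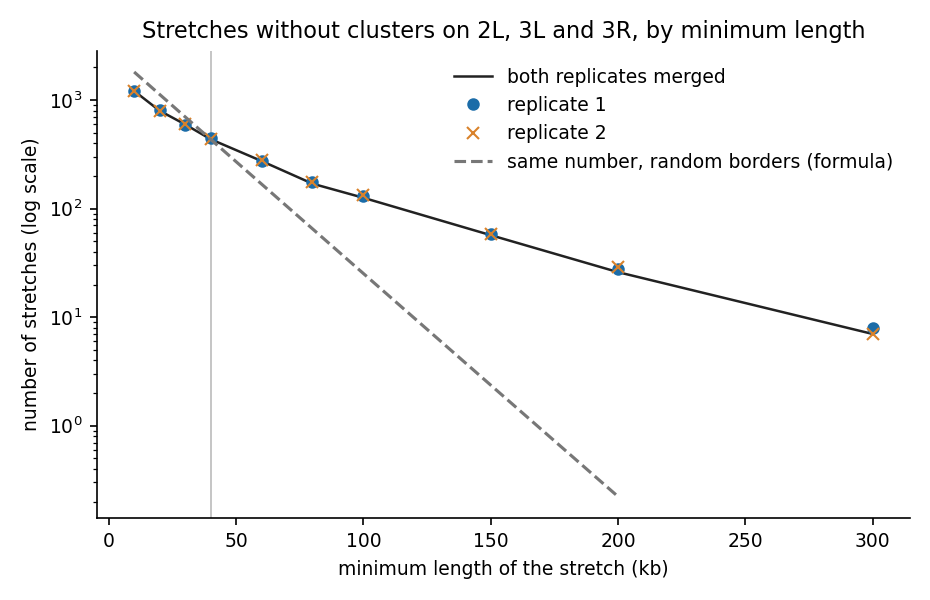
Number of stretches (log scale) of at least the length on the horizontal axis (kb) on 2L, 3L and 3R, for both replicates merged (line), replicate 1 (circles), replicate 2 (crosses) and random division of the same cluster-free sequence (dashed, formula). The merged and the formula curves cross at 40 kb (grey line), and at 100 kb the observed number is 126 against 25.3. The formula depends on the number of all stretches, also the shortest.

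The arms contributed broadly in proportion to their size. Long stretches numbered 126 on 2L, 144 on 3L and 167 on 3R, where the formula gives 142, 135 and 160. They covered 54.2% of 2L, 49.9% of 3L and 53.1% of 3R. In the replicates taken alone the covered share was 55.8% ± 0.69 on 2L, 51.4% ± 0.22 on 3L and 54.1% ± 0.047 on 3R (SD, n = 2). The share on 3L was the lowest in both replicates. The median long stretch was 72917 bp on 2L, 63472 bp on 3L and 67649 bp on 3R. Long stretches covered 53.4% of X and 44.0% of 2R when built in the same way, with 131 and 116 members, respectively.

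Of the 10 longest stretches, 5 lay on 2L, 3 on 3R and 2 on 3L. The longest ran on 3L from 18228518 to 18609247. It measured 380730 bp in the merged set, 380739 bp in replicate 1 and 380756 bp in replicate 2, between clusters of 2216 and 3133 bp. The libraries thus gave almost the same length. The combined set put 2 weak clusters inside it, with scores up to 0.42, and left 216795 bp as its longest free piece.

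The second stretch, on 2L from 4478131 to 4828940, measured 350810 bp, with 350871 bp in replicate 1 and 350810 bp in replicate 2, and stayed free of clusters over 350687 bp in the combined set. The third, on 2L from 17018996 to 17367780, measured 348785 bp. It was the least alike between the libraries among the 10, with 363471 bp in replicate 1 and 349016 bp in replicate 2, because one of its border clusters was listed in a single replicate.

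On 3R the longest stretch ran from 1835292 to 2169276 and measured 333985 bp, with 333989 bp in replicate 1 and 334267 bp in replicate 2. The next on 3R, from 23815812 to 24142469, measured 326658 bp, with 327248 bp in replicate 1 and 326658 bp in replicate 2. Its neighbours show how unequal borders can be, since the cluster on its left was 3236 bp wide and that on its right 25051 bp. The sixth in order, on 3R from 19187354 to 19494135, measured 306782 bp.

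The next 2 were a stretch of 304032 bp on 2L from 14690613 to 14994644 and one of 296168 bp on 3L from 24233385 to 24529552. The latter lies at the centromere end of the assembled arm, its midpoint 0.16 Mb from the last base, and the combined set divided it with 1 cluster of score 1.42. The last of the 10 were on 2L, from 3897246 to 4186283 with 289038 bp and from 18159116 to 18440478 with 281363 bp. Of the 10, 7 contained no cluster of the combined set.

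The threshold of 40 kb did not fall at a natural break in the lengths. The 3 stretches just over it measured 40071, 40107 and 40113 bp and lay on 2L from 16546815, on 3R from 24985025 and on 3R from 5278517. The 3 just under it measured 39939, 39659 and 39570 bp and lay on 3L from 449117, on 2L from 307423 and on 3L from 8906755.

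The libraries mostly placed the ends of the long stretches alike. Every long stretch lay whole within a cluster-free stretch of each library, by the way it was built. In replicate 1 that stretch was at most 5% longer than the merged one for 398 of 437 (91.1%), and in replicate 2 for 413 (94.5%). Both border clusters were listed in both replicates for 367 stretches (84.0%), a single one for 63, and neither for 7. This is no trait of long stretches, since 8.85% of border clusters were listed in one replicate only, against 9.46% of the clusters that touched no long stretch. Where both libraries listed the border cluster, which was so for 797 of 874 ends, the ends differed by a median of 32 bp, and 96.4% of them lay within 500 bp of each other. Of the long stretches called in replicate 1 alone, 423 held 1 member, 7 held more than 1, and 14 held none because clusters of the other library left pieces under 40 kb. In replicate 2 these numbers were 433, 2 and 8.

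Long stretches occurred along the whole of each arm rather than only beside the centromere. In segments of 10% of an arm, the share of sequence in long stretches ran from 30.0% to 81.2% in the merged set. Every merged long stretch lies within a stretch of each replicate, so the share in a replicate alone cannot be lower. The highest share was on 2L, in the segment from 60% to 70% of the way from the telomere end, with 86.9% in replicate 1 and 84.5% in replicate 2 (85.7% ± 1.71, SD, n = 2). The next segment of 2L had 68.8%. The lowest share was on 3L from 80% to 90%, with 32.2% in replicate 1 and 34.0% in replicate 2 (33.1% ± 1.33). The segment at the centromere end held 36.2% on 2L, 56.1% on 3L and 52.1% on 3R, and the one at the telomere end 53.4%, 42.8% and 53.0%. The centromere end was thus the higher of the 2 on 3L and the lower on 2L, and the ends of 3R differed by less than a percentage point.

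**Figure D2:**
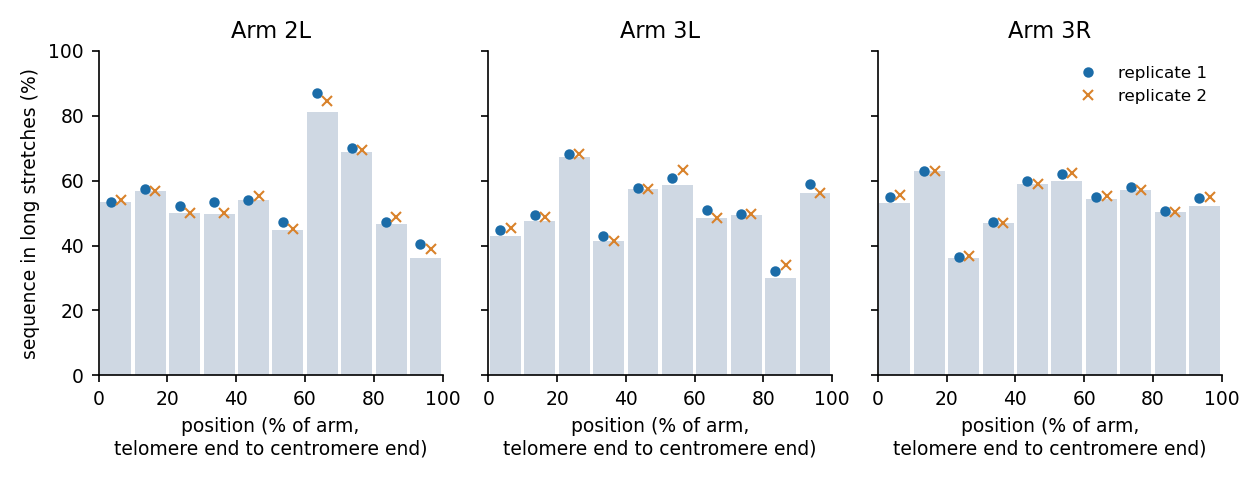
Share of sequence in long stretches (%) in each 10% of the arms 2L, 3L and 3R, from the telomere end (left) to the centromere end (right), for both replicates merged (bars), replicate 1 (circles) and replicate 2 (crosses). The highest bar, at 81.2%, is on 2L, and the lowest, at 30.0%, on 3L.

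In windows of 1 Mb, the share ran from 19.0% to 87.4% with a median of 51.8% over 76 windows, and no window was without a long stretch. The windows named here were picked for their shares. The window on 2L from 14000001 to 15000000 held 87.4% and had 11 merged clusters. In that window the replicates gave 95.1% and 87.4%. Next came the window on 2L from 17000001 to 18000000, with 85.6% and 15 clusters. At the other end, the window on 3L from 21000001 to 22000000 held 19.0% and had 62 clusters.

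Long stretches lay next to each other, parted by a single cluster, more often than a free order would place them. There were 105 such pairs, where the long stretches of each arm in any order among all stretches of that arm would give 64.9 on average, summed over the arms. This average depends on the number of all stretches, and it was not taken with close clusters joined. Replicate 1 had 102 pairs and replicate 2 had 108 (105 ± 4.24, SD, n = 2). The excess was present on each arm, with 30 pairs against 18.4 on 2L, 36 against 20.6 on 3L and 39 against 25.9 on 3R. Of the stretches beside a long one, 24.1% were long themselves, and their median length was 10978 bp. Of the stretches beside a shorter one, 13.3% were long, with a median of 6253 bp. The replicates gave medians of 10523 and 10660 bp beside long stretches and 6085 and 6088 bp beside shorter ones.

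**Figure D3:**
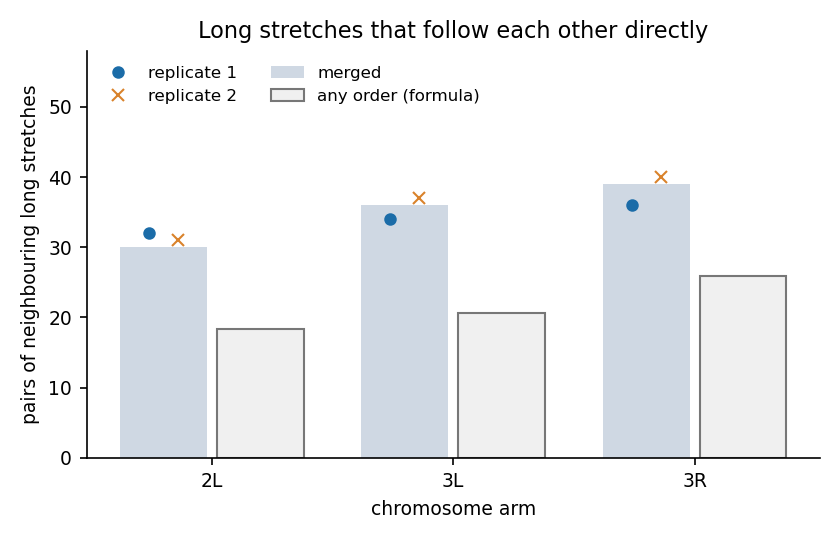
Pairs of long stretches parted by a single cluster on each arm, for both replicates merged (filled bars), replicate 1 (circles), replicate 2 (crosses) and the average over any order of the same stretches (open bars, formula). On each arm both replicates lie above the open bar, as in 36 and 40 against 25.9 on 3R.

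Of the 437 long stretches, 251 stood alone and 186 (42.6%) were in runs of 2 or more. There were 62 runs of 2, 15 of 3, 3 of 4 and 1 of 5. The run of 5 lay on 2L from 17501983 to 18136913 and spanned 634931 bp, of which 98.8% was free of clusters. Its stretches were between 62263 and 201452 bp long, and the 4 clusters that parted them covered 7385 bp in all. In replicate 1 the last of these clusters was not listed, so the final 2 stretches were a single one of 246797 bp.

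The longest run on 3L was of 4 stretches, from 6490457 to 6845300, with 93.8% of 354844 bp free. The clusters that parted them measured 2553, 3458 and 15877 bp, 21888 bp in all, so most of this was a single wide cluster. On 3R no run exceeded 3 stretches. There were 5 of that size, and the widest of them ran from 3375749 to 3711292 with 98.7% of 335544 bp free.

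The clusters at the borders of long stretches were somewhat narrower than the rest, while their scores differed little. The 768 border clusters, leaving out the first and last cluster of each arm, had a median width of 2744.5 bp, and the 2156 clusters that touched no long stretch had a median of 3164.5 bp. Over the replicates, the median width was 2722 ± 1.77 bp at borders and 3115 ± 50.9 bp elsewhere (SD, n = 2). The ratio was 0.88 in replicate 1 and 0.86 in replicate 2. The direction was the same on each arm, with 2627 against 3083 bp on 2L, 2747 against 3092 bp on 3L and 2772 against 3265 bp on 3R. The score, an enrichment value given by the authors on a scale that the sources used here do not state, had a median of 1.14 ± 0.0039 at borders and 1.13 ± 0.0025 elsewhere, a difference of 0.011 ± 0.0014. With 2 libraries an exact sign-flip test cannot give a two-sided p below 0.5, so none is given.

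Wide clusters, of 10 kb or more, made up 6.90% of the border clusters (53 of 768) and 11.4% of the others (246 of 2156). In the replicates the shares were 5.79% and 6.47% at borders and 10.0% and 10.7% elsewhere. The difference between these classes of clusters was not tested.

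The 105 clusters with a long stretch on either side were narrower still, with a median of 2471 bp, against 2801 bp for the 663 with a long stretch on one side only. Their median was 2477.5 bp in replicate 1 and 2396 bp in replicate 2. By arm, this held on 2L (2357 against 2972.5 bp) and 3R (2312 against 2832.5 bp), whereas on 3L the medians were 2758 and 2742 bp. Their median score was 1.26 ± 0.051, against 1.12 ± 0.019 for clusters with one long neighbour. The share of wide clusters hardly differed, at 6.67% (7 of 105) against 6.94% (46 of 663). It was 11.1% against 4.65% on 3L, while on 2L and 3R the order was the opposite.

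Width followed the length of the neighbouring stretch gradually, with no step at 40 kb. Where the longer of the neighbouring stretches was under 2 kb, the median cluster was 3735 bp wide. The median was 2982 bp at 10 to 20 kb, 2923 bp at 20 to 40 kb, 2754.5 bp at 40 to 80 kb and 2605.5 bp at 80 to 160 kb. Beside the longest stretches, from 160 to 400 kb, it was 2964 bp over 104 clusters. The replicates gave 2867 and 2960 bp there and 2613.5 and 2610 bp at 80 to 160 kb, so the narrowing did not go on to the longest stretches.

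**Figure D4:**
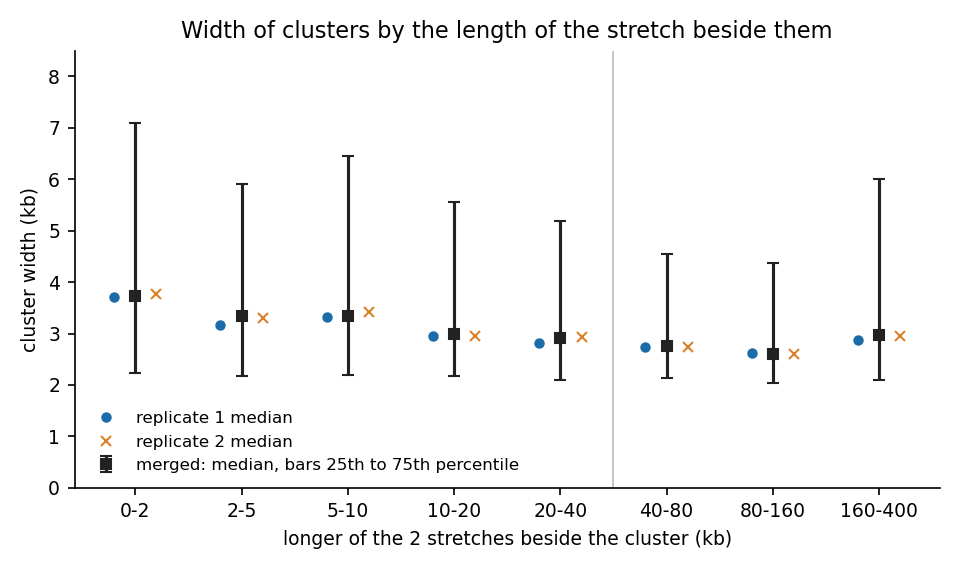
Median width of merged clusters (kb, squares, bars from the 25th to the 75th percentile) by the longer of the stretches beside them (kb), with the medians of replicate 1 (circles) and replicate 2 (crosses). Medians fall from 3735 bp beside stretches under 2 kb to 2605.5 bp at 80 to 160 kb and reach 2964 bp at 160 to 400 kb, and the bars of all classes overlap.

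A few clusters with long stretches on either side were wide. The widest lay on 3R from 24343919 to 24368954 and measured 25036 bp, with 24268 bp in replicate 1 and 25036 bp in replicate 2, between stretches of 172476 and 53651 bp. Its scores were 1.64 and 1.58. The next, on 3L from 13837997 to 13854453, measured 16457 bp and scored 1.81 in replicate 1 and 1.74 in replicate 2. The third, also on 3L, from 6734583 to 6750459, measured 15877 bp and was listed in 2 pieces by each replicate. It belonged to the run of 4 stretches described above.

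The combined set was used to look inside the long stretches, since it holds clusters that neither replicate lists. It comes from the same libraries and is no independent sample. Of its 3097 clusters on the arms, 94 (3.04%) lay in long stretches by at least 50% of their width, and 365 of the 437 long stretches (83.5%) contained none. The clusters inside were weak and narrow, with a median score of 0.34 and a median width of 1261 bp, against 0.99 and 2954 bp over the combined set on these arms. Stretches leave out what the replicates list, so this contrast follows at least in part from how they were built. Of the 94, 58 (61.7%) were narrower than 1301 bp, the smallest cluster of either replicate. The same held for 135 of the 250 clusters in shorter stretches (54%). Those in shorter stretches had a median score of 0.35 and a median width of 1260 bp. The middle range of scores was 0.20 to 0.50 in long and 0.30 to 0.44 in shorter stretches, and the widest cluster measured 2452 and 6586 bp, respectively. In all, combined clusters covered 0.42% of the long stretches, and 419 of the 437 (95.9%) kept a free piece of 40 kb or more.

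Per length, combined clusters were rarer in long stretches, with 2.38 per Mb against 11.4 per Mb in shorter ones (250 clusters in 22.0 Mb). Long stretches have more sequence far from any border, so the rate was also taken by the distance of the cluster's midpoint from the nearest end of the stretch. Within 2 kb of an end there were 7.44 clusters per Mb in long and 15.8 per Mb in shorter stretches. From 2 to 5 kb the rates were 6.10 and 12.5 per Mb, from 5 to 10 kb 2.75 and 7.80 per Mb, and from 10 to 20 kb 2.17 and 5.72 per Mb. The rate in long stretches was the lower one in each of these bands, and within either kind it fell with distance. Beyond 20 kb, where shorter stretches do not reach, it was 1.54 per Mb, from 34 clusters. The rate over whole long stretches rose to 3.27 per Mb without replicate 1 and to 3.73 per Mb without replicate 2, because clusters of the library left out then lie inside them. The rates by distance were taken with both replicates only. Long stretches were chosen for their lack of replicate clusters, and the combined set comes from the same libraries. Taking the distance into account does not remove this dependence, so the lower rates are a description only.

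**Figure D5:**
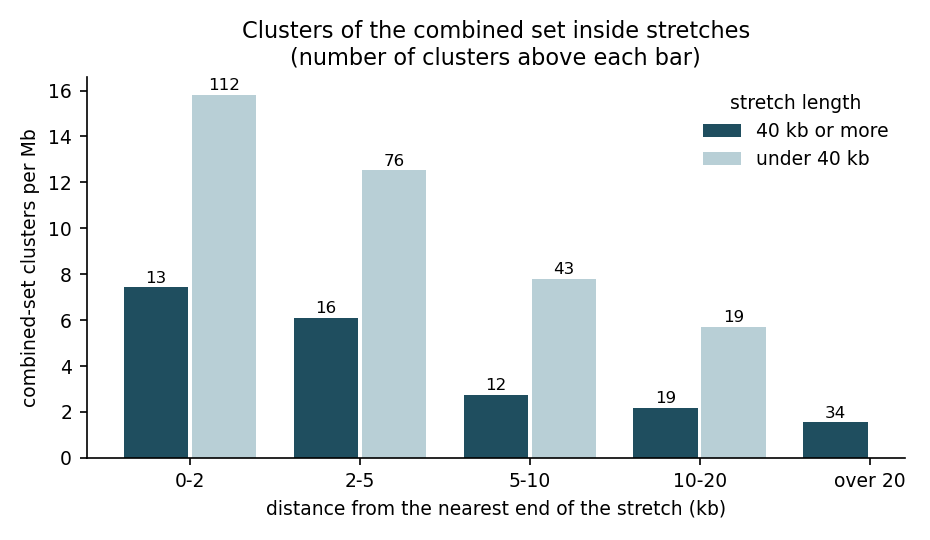
Clusters of the combined set per Mb of stretch, by distance from the nearest end of the stretch (kb), for stretches of 40 kb or more (dark) and under 40 kb (light), with the number of clusters above each bar. The dark bar is the lower one in every band that both kinds reach, as in 7.44 against 15.8 per Mb within 2 kb.

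The share of long stretches with a combined cluster was 16.5% (72 of 437), against 8.27% of the shorter ones (206 of 2490), whose median length is far smaller. Per Mb the order was the opposite, as given above. Among the long stretches, those of 60 to 100 kb had the highest rate, 4.04 clusters per Mb, against 2.64 at 40 to 60 kb, 1.38 at 100 to 200 kb and 1.34 at 200 to 400 kb. The stretch with the most was on 2L from 20848395 to 20910480, with 62086 bp and 4 combined clusters that scored up to 1.70. It lay 2.13 Mb from the centromere end of the arm. A stretch on 3R from 4676165 to 4756429 and another on 3R from 9522601 to 9595500 had 3 each, with scores up to 1.57 and 0.46.

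Not all clusters inside had low scores. Of the 94, 16 scored 1 or more, as did 32 of the 250 in shorter stretches. The number of reads behind these scores is unknown, so a high score need not mean strong enrichment. The highest score, 3.15, belonged to a cluster of 1001 bp on 3R from 26511599 to 26512599, which lay 57132 bp from the nearest end of a stretch of 141909 bp. Exactly this score recurred at clusters of 1001 bp in shorter stretches, for instance on 2L from 6363355 and from 12073277. The second, with a score of 2.79, measured 1007 bp and lay on 2L from 16145291. The third, with a score of 2.57, measured 1002 bp and lay on 3R from 10006685. These 3 were chosen for their scores after the values were seen, and all were close to the smallest width in the combined set inside long stretches, 1001 bp.

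Regions of significant depletion were few. The combined set listed 48 on the 3 arms. Of these, 9 lay in long stretches and 5 in shorter ones, which is 0.23 per Mb in either kind. The number in long stretches depended on the libraries and on the overlap asked for, with 16 without replicate 1, 23 without replicate 2 and 21 when 1 bp of overlap counted. The other 34 lay by less than 50% of their width in any stretch. The rest of their width was thus within clusters of enrichment, at the arm ends or in another stretch, and how it divided was not counted. Clusters covered 12.9 Mb of the arms in replicate 1 and 13.3 Mb in replicate 2, against 61.5 Mb of stretches. By the 50% rule, listed depletion was therefore not concentrated in sequence without clusters. The 9 had scores from -0.17 to -0.0069. All lay wholly inside their stretches, so by construction none could overlap an enriched cluster of a replicate.

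The lowest score of the 9, -0.17, was on 2L from 10456844 to 10458586, in a stretch of 41833 bp. Replicate 2 listed depletion there too, and replicate 1 did not. The second, -0.14, was on 3R from 26737311 to 26739148 in a stretch of 161488 bp, and was again listed by replicate 2 and not by replicate 1. The third, -0.11, lay on 2L from 17777619 to 17779196, inside the run of 5 stretches, and was listed by neither replicate.

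The fourth, -0.11, on 3L from 2150955 to 2152742, was listed as depleted by both replicates. It lay 14037 bp from the nearest end of its stretch of 58110 bp. The fifth, with a score of -0.086 on 3R from 9419691 to 9421463, was listed by neither replicate.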

How the data were processed

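The series was ChIP-seq of Ser2P in Kc167 cells, with 2 ChIP and 2 input libraries. The submitters' processing notes name Bowtie 0.12.7 for alignment. The coordinates follow FlyBase release 5, as the file headers state. The sources used here do not give the region caller, its threshold or how replicates were combined. The score the authors deposited for every region is used to describe regions within a set. Read counts were not used here, so depth and counting error are unknown.

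Enriched regions of both replicates were merged where they overlapped or touched, and stretches between consecutive merged clusters of 40000 bp or more were kept, with arm ends left out. A merged cluster's score in a replicate is the highest among its regions there. The formula for random division gives K(1 - t/T) to the power K - 1 stretches of length t or more, for K stretches of total length T per arm, and the one for order gives m(m - 1)/K pairs for m long stretches, summed over arms. Values per replicate are mean ± SD with n = 2. The members and the rules for naming regions were chosen with earlier results of these data known. The regions named are the 10 longest stretches, those beside the threshold, the longest runs, the widest clusters between long stretches, the stretches with most combined clusters and the 5 depleted regions of lowest score. The extreme 1 Mb windows and the 3 combined clusters of highest score inside long stretches were named after their values were seen. The alternatives changed the merging, the minimum length, the libraries, the score threshold, the ends of the arms and the overlap that counts as inside. The stretch and formula functions were tested on simulated data. Python 3.11.15 with numpy 2.4.6 and matplotlib 3.10.9 was used.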

Additional observations from a re-analysis of the deposited data

Results flagged for a closer look

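The replicate sets also list regions of significant depletion, which entered none of the comparisons between long and shorter stretches. Replicate 2 had 4 of them inside long stretches, above the limit of 3 used for flagging, and replicate 1 had 2. That limit takes no account of how much of the arms the long stretches cover, so passing it has no meaning of its own. The regions inside were 4 of 9 and 2 of 6 on the arms, and long stretches cover 52.4% of the arms, so the counts show no concentration there. The 4 lay on 2L from 10456838 with a score of -0.051, on 3L from 2150982 with -0.049, on 3R from 26737435 with -0.0050 and on 3R from 27770708 with -0.00015. Both regions of replicate 1 lay at the places of the second and the last of these.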

How the results depend on the processing

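No paired analysis was possible because the input libraries, which share replicate numbers with the ChIP libraries, had no values to compare. The number of long stretches stayed within 1.5 times of 437 under all 9 alternatives run on it. Their summed length, 39.5 Mb in the report, was 45.1 Mb at a minimum of 30 kb, 35.6 Mb at 50 kb, 52.0 Mb with the better-scoring 50% of clusters, 34.3 Mb without 2 Mb at each arm end and 38.5 Mb in the combined set, and 40.4 to 40.7 Mb with a replicate left out. Adjacent pairs, 105 in the report, numbered 182 at 30 kb and 181 with the better-scoring clusters. The average for a free order was not taken at these settings, so the counts do not show how the excess over it changed. Replicate 1 alone gave 102 pairs against 66.8 by the formula, and replicate 2 alone 108 against 66.9. The ratio of border to other median widths, 0.87, was 0.81 with clusters under 1 kb apart joined, 0.89 at 50 kb and 0.90 in the combined set. It was 0.877 without replicate 1 and 0.870 without replicate 2. There the border clusters were set anew from the remaining library. The ratios of 0.88 in replicate 1 and 0.86 in replicate 2 given earlier used the borders of the merged set. Combined clusters per Mb, 2.38, were 2.93 at 30 kb, 18.5 with the better-scoring clusters and 16.1 when 1 bp of overlap counted, and 3.27 to 3.73 with a replicate left out. The last range follows from the construction, since clusters of the replicate left out then lie in the stretches, and so does the value for the better-scoring clusters. Depleted regions inside, 9, numbered 39 with the better-scoring clusters and 21 when 1 bp counted, and 16 to 23 with a replicate left out. The rises with fewer clusters also follow from the construction. The long stretches then take in sequence that clusters had covered or that lay in shorter stretches. Counting 1 bp of overlap adds regions that only reach over an end of a stretch. When only regions wholly inside counted, the values were again 2.38 clusters per Mb and 9 depleted regions. The cause of the other changes was not tested.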
